A study of Mus musculus with 24 samples.

Results

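The results below concern 9 genes that restrain signalling from Ras to the kinase ERK or are switched on by it: Spred1, Spred2, Spry1, Spry2, Dusp4, Dusp5, Dusp6, Etv5 and Phlda1. They were listed by symbol, and each symbol matched 1 identifier among the 55487 genes of the deposited table. All 9 were among the 14535 genes kept by the filter on low counts. The list was drawn up around Spred2, which was chosen by its measured CPM, whose change over time differed between genotypes, so its values are given as a description, without a test.

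RNA was sequenced from dendritic cells grown out of mouse bone marrow in GM-CSF (50 ng/mL). Marrow came from male and female mice aged 8 to 10 weeks. WT denotes the genotype labelled ARPC4 Flox/Flox CD11c-Cre -/- and KO the genotype ARPC4 Flox/Flox CD11c-Cre +/-, so the control animals also carry floxed Arpc4 and differ from KO in lacking the Cre transgene. Arpc4 encodes a subunit of the Arp2/3 complex, which starts branched actin filaments, and the CD11c promoter limits deletion to cells that have switched that promoter on. Cells in suspension were collected once a day from day 7 to day 10, after replating on days 4 and 7, from 3 mice per genotype, which gave 8 groups of 3 and 24 libraries. Values of single libraries are given in the order of mice 63, 65 and 66 for WT and 64, 67 and 68 for KO. The protocol states that over 90% of cells carried CD11c.

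Growth factor receptors such as the GM-CSF receptor load Ras with GTP, and Ras then activates a chain of kinases that ends in ERK. Active ERK raises transcription of its own inhibitors. Sprouty and Spred proteins act near the receptor and Ras, dual-specificity phosphatases remove the activating phosphates from ERK itself, and Etv5 and Phlda1 are widely used as transcript readouts of the pathway. In myeloid cells this loop shapes how long a growth factor signal lasts.

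Libraries held 19952047 to 31049798 counts. Arpc4 stood at 188 to 270 CPM (the count relative to the library total, adjusted by TMM factors) in WT and at 155 to 231 CPM in KO. It was lower in KO on each day without overlap, and much of the transcript was still counted under the KO label. Itgax, which encodes CD11c, ran from 750 to 1661 CPM and Cd74 from 778 to 4040 CPM, whereas Flt3 and Zbtb46, markers of conventional dendritic cells, reached no more than 6.70 and 23.7 CPM. Of 10 macrophage markers Csf1r had the highest median (810 to 1388 CPM), whereas Cd163 reached no more than 0.441 CPM. Of 10 granulocyte markers Mmp8 had the highest median (1059 to 1905 CPM), whereas Ly6g reached no more than 17.9 CPM. The 8 dendritic cell markers summed to 2377 to 2969 CPM in WT on day 7 and to 5228 to 7057 CPM on day 10, while the 10 macrophage markers summed to 3369 to 3676 CPM and then 2144 to 2205 CPM. The summed level of 6 lymphocyte markers stayed at or under 4.20 CPM and that of 4 erythroid markers at or under 1.29 CPM. The 6 cycling cell markers summed to more over the same days, from 279 to 294 CPM in WT on day 7 to 773 to 955 CPM on day 10. In these bulk samples fewer cells of a type and less RNA per cell cannot be told apart. The Y-linked gene Ddx3y was above 1 CPM in 1 library of each group, always mouse 63 in WT. In KO it was mouse 64 on days 7 and 9, mouse 68 on day 8 and mouse 67 on day 10, so the KO mouse numbers do not follow 1 animal across days.

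**Figure D1:**
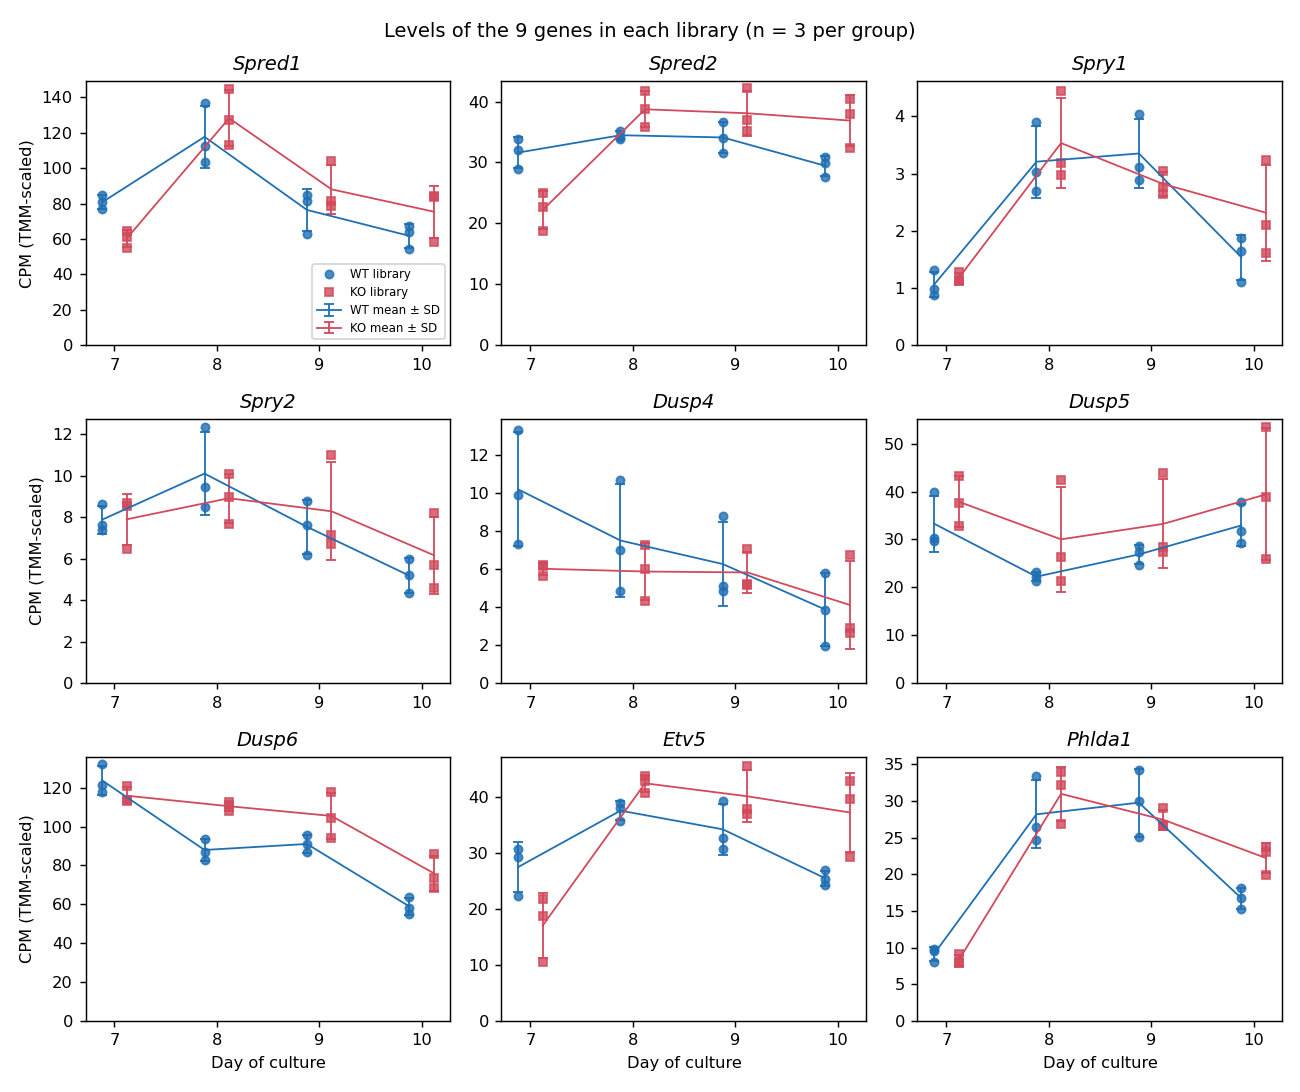
Levels of the 9 genes in CPM (vertical axis, each from 0) against day of culture (horizontal axis), with circles for the WT libraries, squares for the KO libraries, and lines and bars for the mean ± SD of 3 libraries. Phlda1 and Spry1 are lowest on day 7 in both genotypes, Dusp6 ends lowest on day 10, and the KO squares of Spred2 and Etv5 lie below the WT circles on day 7 and above them on day 10.

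Per unit of transcript length, Dusp6 was the most abundant of the 9 genes, with a median of 99.1 TPM over the 24 libraries (range 54.4 to 124). Spred1 (38.9 TPM), Dusp5 (36.7 TPM), Phlda1 (35.4 TPM), Etv5 (26.3 TPM) and Spred2 (23.2 TPM) formed a middle range by their medians. Spry2 (11.1 TPM), Dusp4 (6.62 TPM) and Spry1 (2.95 TPM) were lowest. Spry1 rested on 22 to 105 counts per library, the fewest of the 9. In CPM, the highest library exceeded the lowest 6.82-fold for Dusp4, 5.02-fold for Spry1, 4.37-fold for Phlda1 and 4.29-fold for Etv5. For Spred2 that ratio was 2.24 and for Dusp6 it was 2.40.

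Spred2 (ENSMUSG00000045671.17, chromosome 11, 19924375 to 20024026 on GRCm38, forward strand, protein-coding) encodes a Sprouty-related protein that brings the Ras-inactivating protein neurofibromin to the membrane. On day 7 it stood at 28.9, 33.9 and 32.0 CPM in WT and at 25.1, 18.8 and 22.7 CPM in KO. All 3 KO libraries lay below all WT libraries, with the lowest value in KO mouse 67. On day 8 the values were 33.9, 35.2 and 34.3 CPM in WT and 38.7, 41.7 and 35.8 CPM in KO, and on day 9 they were 36.7, 31.5 and 34.1 CPM against 36.9, 42.2 and 35.1 CPM. KO was higher without overlap on day 8, and the groups overlapped on day 9. On day 10 WT had 27.7, 29.9 and 30.8 CPM and KO had 40.3, 38.0 and 32.3 CPM, again without overlap.

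The genotype difference of Spred2, as a log2 fold change of KO over WT, was -0.51 (SE 0.10) on day 7 and 0.32 (SE 0.10) on day 10, and it was 0.17 on day 8 (95% interval -0.05 to 0.39) and 0.16 on day 9 (-0.06 to 0.38). The choice of the gene rests on these values. Most of the movement of Spred2 in KO fell between days 7 and 8, a log2 change of 0.80 (SE 0.10, 1.75-fold), against 0.13 (SE 0.10) in WT. From day 8 to day 9 the log2 change was -0.02 in WT (95% interval -0.23 to 0.20) and -0.02 in KO (-0.24 to 0.19). Ordered by mean level, the groups ran KO day 8 (38.7 ± 2.9 CPM), KO day 9, KO day 10, WT day 8, WT day 9, WT day 7, WT day 10 (29.5 ± 1.6 CPM) and KO day 7 (22.2 ± 3.2 CPM, SD, n = 3 each). Each neighbour in that order overlapped the next except WT day 10 and KO day 7, which stood apart. In TPM the WT means were 18.2 ± 1.6 on day 7, 23.2 ± 0.57 on day 8 and 20.6 ± 0.40 on day 10 (SD, n = 3 each). On that scale WT day 10 lay above WT day 7 without overlap, so the WT course and the order of groups depended on the scaling.

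Spred1 (ENSMUSG00000027351.14, chromosome 2, 117121374 to 117182279, forward strand), the closest relative of Spred2 in the list, peaked on day 8. WT libraries held 76.9, 84.7 and 80.6 CPM on day 7 and 104, 137 and 112 CPM on day 8. KO libraries held 64.7, 55.1 and 61.0 CPM on day 7 and 145, 127 and 113 CPM on day 8. In each genotype every day 8 library lay above every day 7 library. The log2 rise was 0.54 in WT (SE 0.15, edgeR adjusted p = 0.0055) and 1.09 in KO (SE 0.15, adjusted p = 8.0e-06). By day 9 Spred1 had fallen to 62.8, 84.9 and 81.6 CPM in WT, a log2 change of -0.62 (SE 0.15, edgeR adjusted p = 0.021), a call that was lost without WT mouse 65 or 66 on day 8 or mouse 63 or 66 on day 9 (adjusted p 6.7e-05 to 0.12 over all alternatives). In KO it stood at 104, 78.9 and 81.5 CPM on day 9, a log2 change of -0.54 (SE 0.15, edgeR adjusted p = 0.054). It passed in 6 of 14 alternatives (adjusted p 0.0099 to 0.30 over them). Among them were the DESeq2 Wald test, both other filters on counts, and the fits without KO mouse 68 on day 8 or mouse 64 on day 9.

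Spry1 (ENSMUSG00000037211.12, chromosome 3, 37639947 to 37644598, forward strand) encodes a Sprouty adaptor that dampens receptor signals upstream of Ras. It stood at 0.883, 1.31 and 0.984 CPM in WT and at 1.12, 1.11 and 1.29 CPM in KO on day 7. On day 8 it stood at 2.69, 3.02 and 3.91 CPM in WT and at 2.98, 3.18 and 4.44 CPM in KO, above every day 7 library of its genotype. The rise from day 7 to day 8 was 3.03-fold in WT (log2 1.60, SE 0.26, edgeR adjusted p = 6.1e-05) and 3.00-fold in KO (log2 1.58, SE 0.26, adjusted p = 5.8e-05). Between days 9 and 10 Spry1 fell in WT from 2.89, 3.12 and 4.04 CPM to 1.10, 1.65 and 1.87 CPM (log2 -1.12, SE 0.25, edgeR adjusted p = 0.019). That fall did not pass without WT mouse 65 or 66 on day 9, without mouse 63 on day 10, or without the 8 libraries high in Ddx3y (adjusted p 0.00094 to 0.13 over the alternatives). In KO it went from 3.05, 2.76 and 2.64 CPM to 1.61, 3.25 and 2.09 CPM, which overlap. Its relative Spry2 (ENSMUSG00000022114.5, chromosome 14, 105891947 to 105896819, reverse strand) moved less, with WT means for days 7 to 10 in turn of 7.87 ± 0.67, 10.1 ± 2.0, 7.53 ± 1.3 and 5.18 ± 0.83 CPM (SD, n = 3 each). In KO the Spry2 means were 7.89 ± 1.2, 8.91 ± 1.2, 8.28 ± 2.4 and 6.16 ± 1.9 CPM (SD, n = 3 each), and the libraries of each day overlapped those of WT.

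Phlda1 (ENSMUSG00000020205.8, chromosome 10, 111506286 to 111508645, forward strand), a pleckstrin homology-like domain gene, followed a course much like that of Spry1. On day 7 it stood at 8.03, 9.50 and 9.84 CPM in WT and at 9.10, 7.84 and 7.84 CPM in KO. On day 8 the libraries held 26.4, 24.7 and 33.5 CPM in WT and 26.8, 32.2 and 34.0 CPM in KO. No day 8 library of either genotype came near the day 7 values. The rise was 3.09-fold in WT (log2 1.63, SE 0.13, edgeR adjusted p = 1.4e-08) and 3.75-fold in KO (log2 1.91, SE 0.14, adjusted p = 2.3e-09). From day 9 to day 10 Phlda1 fell in WT from 34.3, 25.0 and 30.0 CPM to 15.3, 18.1 and 16.8 CPM (log2 -0.83, SE 0.13, edgeR adjusted p = 0.0027), a call that was lost without the 8 libraries high in Ddx3y (adjusted p 0.054, and 1.2e-06 to 0.054 over the alternatives). In KO it stood at 29.0, 26.7 and 26.6 CPM on day 9 and 23.1, 23.7 and 19.9 CPM on day 10, lower without overlap (log2 -0.30, SE 0.13, edgeR adjusted p = 0.34). Across the 24 libraries log2 CPM of Phlda1 and Spry1 had r = 0.92, and r = 0.44 within groups. These are descriptions, since libraries of 1 mouse and 1 day share their source.

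Dusp6 (ENSMUSG00000019960.8, chromosome 10, 99263231 to 99267489, forward strand) encodes a cytoplasmic phosphatase selective for ERK. It ran opposite to Phlda1 over the first day in WT, from 132, 121 and 118 CPM on day 7 to 93.8, 87.1 and 82.9 CPM on day 8, a log2 change of -0.49 (SE 0.086, edgeR adjusted p = 0.00011). In KO it stood at 114, 113 and 121 CPM on day 7 and at 108, 112 and 111 CPM on day 8, lower without overlap but by a log2 change of only -0.07. In TPM the KO libraries went the other way, from 99.4, 105 and 103 TPM on day 7 to 111, 124 and 107 TPM on day 8. That was higher without overlap, so the direction of this KO step depended on the scaling. On day 9 the libraries held 95.6, 86.7 and 90.8 CPM in WT and 118, 94.0 and 104 CPM in KO. By day 10 they held 63.6, 58.1 and 55.0 CPM in WT and 73.7, 85.7 and 68.3 CPM in KO, the lowest values of the series in each genotype. From day 7 to day 10 Dusp6 fell by 52.4% in WT (log2 -1.07, SE 0.087, edgeR adjusted p = 3.3e-08) and by 34.5% in KO (log2 -0.61, SE 0.086, adjusted p = 2.1e-05). The step from day 9 to day 10 passed in WT (log2 -0.63, SE 0.087, edgeR adjusted p = 0.0022) and in KO (log2 -0.47, SE 0.086, adjusted p = 0.034). The KO step did not pass when KO mouse 64 or 68 was left out on day 9 or on day 10, or when only those 2 groups were fitted (adjusted p 0.00053 to 0.65 over the alternatives).

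Dusp4 (ENSMUSG00000031530.6, chromosome 8, 34807297 to 34819894, forward strand), a nuclear MAP kinase phosphatase, declined in WT from 7.35, 13.3 and 9.93 CPM on day 7 to 1.96, 5.80 and 3.84 CPM on day 10 (log2 -1.40, SE 0.38, edgeR adjusted p = 0.0071). In KO it stood at 6.23, 5.66 and 6.17 CPM on day 7 and at 2.92, 6.76 and 2.65 CPM on day 10, which overlap. Dusp5 (ENSMUSG00000034765.6, chromosome 19, 53529109 to 53542431, forward strand), a nuclear phosphatase selective for ERK, had its lowest WT values on day 8, from 21.4 to 23.2 CPM over the 3 libraries, against 29.7, 30.2 and 40.0 CPM on day 7. That difference lay without overlap and missed the threshold (log2 -0.58, SE 0.24, edgeR adjusted p = 0.059). It passed in 6 of 16 alternatives (0.00017 to 0.35 over them), among them the fit of the 12 WT libraries with the mouse as a replicate block. In KO, Dusp5 spanned 21.4 to 42.4 CPM on day 8 and 25.9 to 53.5 CPM on day 10. Its means on days 8 and 10 were 22.2 and 32.9 CPM in WT and 30.0 and 39.4 CPM in KO, and with the filter used here no comparison between days passed for Dusp5 in edgeR on all 24 libraries. With no filter on low counts, or with at least 50 counts on average, its WT change from day 7 to day 8 did.

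Etv5 (ENSMUSG00000013089.15, chromosome 16, 22381309 to 22439719, reverse strand) encodes an ETS transcription factor of the PEA3 family. On day 7 it stood at 22.3, 29.3 and 30.8 CPM in WT and at 21.7, 10.6 and 18.7 CPM in KO. Every KO library was below every WT library, and KO mouse 67 was the lowest by far. On day 8 it had reached 38.9, 38.1 and 35.7 CPM in WT and 43.7, 42.8 and 40.7 CPM in KO. The level was 2.49-fold that of day 7 in KO (log2 1.32, SE 0.19, edgeR adjusted p = 1.1e-05), a rise that passed, and 1.37-fold in WT (log2 0.45, SE 0.18, adjusted p = 0.0504). The WT value passed in 9 of 16 alternatives, among them the fit with the mouse number as a replicate block (limma voom, log2 0.47, adjusted p = 0.036, and 0.0020 to 0.25 over the alternatives) and the fit without WT mouse 66 on day 7. By day 10 Etv5 was back at 25.3, 26.9 and 24.2 CPM in WT, overlapping its day 7 range, whereas KO held 39.6, 42.8 and 29.3 CPM, above its own day 7 range (log2 1.13, SE 0.19, edgeR adjusted p = 0.00010).

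**Figure D2:**
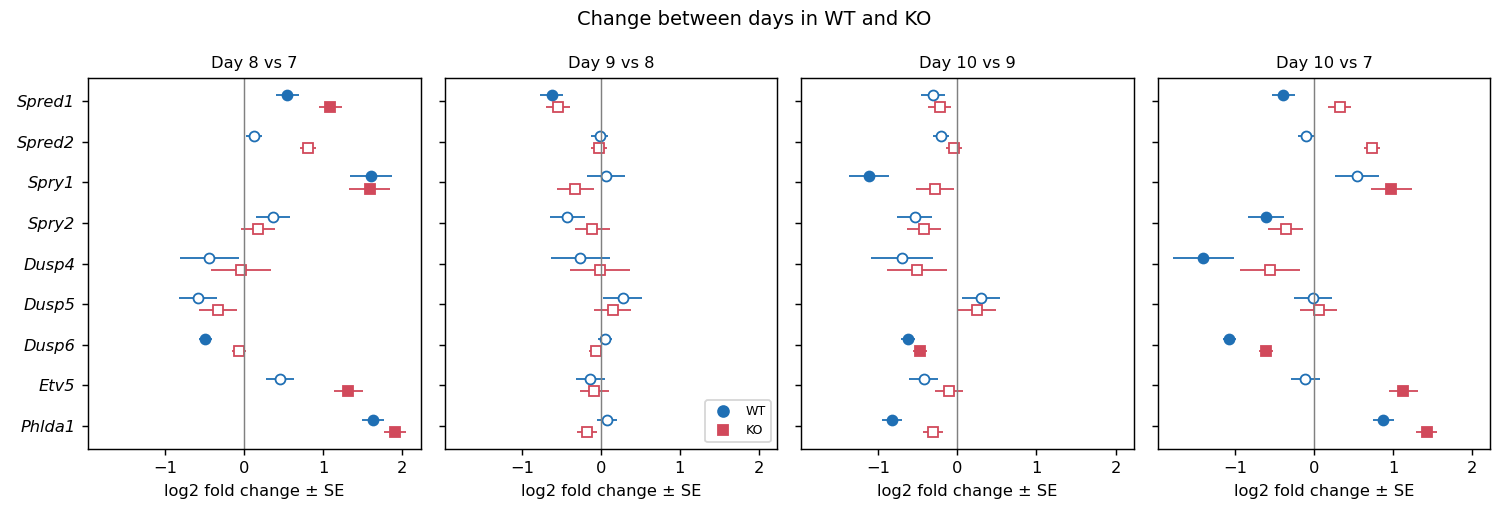
Log2 fold changes between days (horizontal axis, ± SE) for the 9 genes (vertical axis) in WT (circles) and KO (squares), with 1 panel for each pair of days. Filled symbols passed an edgeR adjusted p of 0.05 in the fit of all 24 libraries, and Spred2 is open because it was not tested. In the day 8 panel Phlda1 and Spry1 lie near 1.6 to 1.9 in both genotypes, and in the day 10 against day 7 panel Etv5 and Phlda1 are filled at 1.13 and 1.43 in KO.

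Calls were counted over the 8 genes other than Spred2 for each step. From day 7 to day 8 in WT, 3 rose (Spred1, Spry1 and Phlda1) and 1 fell (Dusp6), where 43.4% of all genes passed (21.5% higher and 22% lower). In KO 4 rose (Spred1, Spry1, Etv5 and Phlda1) and 0 fell, against 42% of all genes (21.1% higher and 20.9% lower). In either direction 4 of 8 passed in each genotype, a share close to the background of this step, while higher calls were more frequent among the members than among all genes in KO and lower calls less frequent. These differences in direction were not tested. From day 8 to day 9, 1 of 8 passed in WT (Spred1, lower, against 5.4% of all genes and 2.34% lower) and 0 of 8 in KO by edgeR (background 2.33%). In that KO step 1 of 8 had an unadjusted p under 0.05, where 18.7% of all genes did, and the DESeq2 Wald test called 1 (background 6.18%). From day 9 to day 10, 3 of 8 fell in WT (Spry1, Dusp6 and Phlda1, background 3.6%, and 2.42% lower), and 1 of 8 fell in KO (Dusp6, background 0.0963%, and 0.0619% lower). That KO background depended on single libraries, being 3.17% without mouse 67 on day 10 and 0% without mouse 64 on day 9 or mouse 64 or 68 on day 10. Without the 8 libraries high in Ddx3y the count from day 9 to day 10 was 1 of 8 in WT, where 0.785% of all genes passed. From day 7 to day 8 edgeR called 4 of 6 cycling markers higher and 1 lower in WT, and 1 higher and 1 lower in KO. Of the 8 dendritic cell markers it called 0 in WT (1 at an unadjusted p under 0.05) and 1 higher in KO. Of the 8 mast cell and basophil markers 4 were called higher and 1 lower in WT, and 1 higher and 1 lower in KO, and of the 10 granulocyte markers 2 were called lower in WT and 4 lower in KO. Of the 10 macrophage markers 2 were called higher and 2 lower in WT, and 3 lower in KO (median log2 -0.33). From day 8 to day 9 in WT, 2 macrophage markers were called lower (median -0.35), 2 granulocyte (median 0.80), 2 cycling (median 1.12) and 1 dendritic cell marker (median 0.53) higher. In KO 1 macrophage marker was called lower and 1 granulocyte marker higher over that step, and all 6 cycling markers had an unadjusted p under 0.05 (median 0.96). From day 9 to day 10 edgeR called 0 dendritic cell, cycling or mast cell and basophil markers in either genotype, with 3 dendritic cell and 1 mast cell and basophil marker in WT and 6 mast cell and basophil markers in KO at an unadjusted p under 0.05. In WT 1 macrophage marker was called lower over that step (Fcgr1, log2 -0.51, edgeR adjusted p = 0.0062) and 1 granulocyte marker higher (Ly6g, log2 1.52, adjusted p = 0.013), and the medians of these lists were -0.21 and 0.37. The part of these cells in the members' changes was not tested.

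The labelled mouse numbers pair libraries across days in WT but not in KO, so the WT steps were also fitted on the 12 WT libraries alone, with the mouse as a replicate block. In that fit all 8 genes passed from day 7 to day 8, where 55.5% of all genes did. Beside the 4 genes named above, Etv5 (log2 0.47, edgeR adjusted p = 0.0020) and Spry2 (log2 0.37, adjusted p = 0.021) rose, and Dusp5 (log2 -0.56, adjusted p = 0.00017) and Dusp4 (log2 -0.45, adjusted p = 0.0093) fell. From day 9 to day 10, 7 of 8 fell, where 16.7% of all genes passed in either direction. Dusp4 (log2 -0.74, edgeR adjusted p = 0.0035), Spry2 (log2 -0.55, adjusted p = 0.011), Etv5 (log2 -0.44, adjusted p = 0.014) and Spred1 (log2 -0.31, adjusted p = 0.022) were added there, and Dusp5 did not pass (log2 0.28, adjusted p = 0.067). From day 8 to day 9, Spry2 (log2 -0.42, edgeR adjusted p = 0.029) joined Spred1, 2 of 8 against 20% of all genes. Without the block the same 12 libraries gave 6, 1 and 4 calls for the steps to day 8, day 9 and day 10, where 51.9%, 15.2% and 10.5% of all genes passed.

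Over the whole interval from day 7 to day 10, 5 of 8 passed in WT, where 37% of all genes did (18.9% higher and 18.1% lower). Phlda1 rose 1.84-fold (log2 0.88, SE 0.13, edgeR adjusted p = 4.4e-05), and Dusp4, Dusp6, Spred1 and Spry2 fell. The calls of Spred1 (log2 -0.39, edgeR adjusted p = 0.047) and Spry2 (log2 -0.61, adjusted p = 0.038) were both lost without WT mouse 63, 65 or 66 on day 7 or mouse 63 or 66 on day 10, which left 3 of 8. In KO 4 of 8 passed, against 36.8% of all genes (19.7% higher and 17.1% lower). Phlda1 rose 2.69-fold (log2 1.43, SE 0.13, edgeR adjusted p = 2.2e-07), Etv5 2.19-fold and Spry1 1.97-fold (log2 0.98, SE 0.26, adjusted p = 0.0061), and Dusp6 fell. The call of Spry1 was lost without the 8 libraries high in Ddx3y and when only the 2 groups were fitted (adjusted p 0.00041 to 0.075 over the alternatives). Over the same interval edgeR called 5 of 8 dendritic cell markers and 5 of 6 cycling markers higher in each genotype, and 6 (WT) and 7 (KO) of 10 macrophage markers lower. Of the 10 granulocyte markers 5 were called higher and 1 lower in WT, and 0 higher and 1 lower in KO, and of the 8 mast cell and basophil markers 1 was called higher and 1 lower in each. Their part in the members' changes was not tested. The median log2 change of the 8 genes was -0.25 in WT and 0.19 in KO, beside -0.02 and 0.00 for all genes tested. The changes of a gene in WT and in KO rest on separate libraries, and their difference was tested as an interaction.

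That interaction passed for 0 of the 8 genes in edgeR, where 4 had an unadjusted p under 0.05, as did 6.31% of all genes. The DESeq2 Wald test called 1 (0.268% of all genes), and limma on TPM and the replicate block called 0 (0.0413% and 0.055%). Over all genes 0.0619% passed in edgeR, and 0.0202% to 0.108% with 1 library left out. All 8 values were positive, meaning a more positive change in KO, from 0.07 to 1.24 with a median of 0.51, beside 0.00 for all genes. With 1 library left out, 7 of 8 were positive in 5 of 12 fits. Dusp5 was the negative gene without WT mouse 66 or KO mouse 64 on day 7 or without WT mouse 65 or KO mouse 64 on day 10 (-0.21 in the last), and Spry2 (-0.02) without KO mouse 67 on day 10, where the median was 0.32. Spry2 was also negative without the 8 libraries high in Ddx3y. In the same interaction the granulocyte markers had a median of -0.73 (4 of 10 at an unadjusted p under 0.05), the mast cell and basophil markers -0.64 (1 of 8), the cycling markers -0.63 (1 of 6), the dendritic cell markers -0.26 (0 of 8) and the macrophage markers -0.03 (0 of 10). EdgeR called 0 of them, and their part in the members' values was not tested. Etv5 had the largest value at 1.24 (SE 0.26, edgeR adjusted p = 0.11), above the 0.83 (SE 0.15) that describes Spred2. It passed without WT mouse 63 on day 7 (adjusted p = 0.048), without KO mouse 64 on day 7 (0.045) or without KO mouse 68 on day 10 (0.044), and the range over all alternatives was 0.0033 to 0.55. Spred1 had 0.71 (SE 0.21, edgeR adjusted p = 0.50), Phlda1 0.55 (SE 0.19, adjusted p = 0.60) and Dusp6 0.46 (SE 0.12, adjusted p = 0.33). For the step from day 7 to day 8 alone the interaction passed for 0 of 8 in edgeR, the DESeq2 Wald test, limma on TPM and the replicate block. In edgeR 3 of 8 had an unadjusted p under 0.05, where 4.71% of all genes did, and 0.0275% of all genes were called. Both interactions share the day 7 libraries.

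Within a day, KO was compared with WT on each of the 4 days. On day 7 Spred1, Dusp4 and Etv5 were lower in KO without overlap (3 of 8, where 14.2% of all genes were lower without overlap), as was Spred2 by description. On the log2 scale KO minus WT was -0.69 for Etv5 (SE 0.19, edgeR adjusted p = 0.068), -0.76 for Dusp4 (SE 0.38, adjusted p = 0.34) and -0.42 for Spred1 (SE 0.15, adjusted p = 0.17). None of the 8 passed in edgeR (background 1.45%), and 2 had an unadjusted p under 0.05, where 15.7% of all genes did. The DESeq2 Wald test called 1 (Etv5, background 3.6%), and limma on TPM and the replicate block called 0 (0.826% and 0.998%). Etv5 also passed without KO mouse 64 on day 7 (adjusted p = 0.025), while without KO mouse 67 its log2 fold change was -0.43, and its adjusted p ran from 0.013 to 0.34 over the alternatives. KO mouse 67, the lowest library for Etv5, also stood apart on the first principal component of all genes (-31.1, against -52.3 and -61.0 in the other KO libraries) and in Mki67 (160 CPM, against 84.0 and 85.8 CPM). Median log2 differences of KO over WT were 0.49 over the 10 granulocyte markers (5 at an unadjusted p under 0.05, 0 called) and 0.68 over the 8 mast cell and basophil markers (4 at an unadjusted p under 0.05, 0 called). The median was 0.39 over the 8 dendritic cell markers (1 at an unadjusted p under 0.05, 0 called). Over 4 fibroblast markers it was -1.14 (0 at an unadjusted p under 0.05), with sums of 10.2 to 18.9 CPM in KO and 7.23 to 61.0 CPM in WT, which overlap. The cycling markers summed to 343 to 499 CPM in KO and 279 to 294 CPM in WT on that day, without overlap, and the 10 macrophage markers to 3407 to 4371 CPM and 3369 to 3676 CPM. Of the macrophage markers 1 was called higher in KO (Fcgr1, log2 0.46, edgeR adjusted p = 0.020), 3 had an unadjusted p under 0.05, and the median log2 difference was 0.24. Their part in these differences was not tested.

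On day 8 Dusp6 was higher in KO (108 to 112 CPM against 82.9 to 93.8 CPM), as was Etv5 (40.7 to 43.7 CPM against 35.7 to 38.9 CPM), both without overlap, where 4.4% of all genes were higher without overlap. For Dusp6 KO minus WT was 0.33 on the log2 scale (SE 0.086, edgeR adjusted p = 0.43). On day 9 no member stood apart, where 14.1% of all genes did, and Dusp6 was at 0.21 (SE 0.086, edgeR adjusted p = 0.48). None of the 8 passed on day 8 or day 9 in edgeR, the DESeq2 Wald test, limma on TPM or the replicate block. The background was 0.00688% on each day, except with the DESeq2 Wald test, where it was 0.117% on day 8 and 0.674% on day 9. In edgeR 1 of 8 had an unadjusted p under 0.05 on each day, where 5.91% and 8.15% of all genes did. Without KO mouse 68 on day 8 the background of that day was 0.472% (70 genes against 1), and the count of members stayed at 0. That library was lowest of its group on the first principal component (-8.06, against 11.6 and 34.0) and in Mki67 (67.1 CPM, against 130 and 200 CPM). The dendritic cell markers had a median log2 difference of 0.49 on day 8 (3 of 8 at an unadjusted p under 0.05) and 0.39 on day 9 (1 of 8). The mast cell and basophil markers had 0.37 (0 of 8) and 0.60 (3 of 8), and edgeR called 0 markers of either list on either day. Their part in these differences was not tested.

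By day 10 all 8 genes had a positive log2 fold change of KO over WT, from 0.09 for Dusp4 to 0.58 for Spry1, with a median of 0.33 beside 0.00 for all genes. The common sign depended on single libraries. Without KO mouse 67 on day 10, Dusp4 (-0.46) and Spry2 (-0.01) were negative and Spry1 was at 0.27. Without KO mouse 64 on that day Dusp5 was negative (-0.01), and without WT mouse 63 Dusp4 was. KO mouse 67 stood lowest of its group on the first principal component of all genes (14.3, against 51.2 and 32.2) and in Mki67 (198 CPM, against 351 and 327 CPM), and the part of this in the values was not tested. Without the 8 libraries high in Ddx3y, of which it is 1, Spry1 was at 0.08 and Dusp4 and Spry2 were again negative. Dusp6, Etv5 and Phlda1 were higher in KO without overlap (3 of 8, where 5.47% of all genes were), as was Spred2 by description. Dusp6 was 1.29-fold higher (log2 0.37, SE 0.086, edgeR adjusted p = 0.22), Phlda1 1.33-fold (log2 0.41, SE 0.13, adjusted p = 0.39) and Etv5 1.46-fold (log2 0.55, SE 0.18, adjusted p = 0.41). Spry1 was at 0.58 on the log2 scale (SE 0.25, edgeR adjusted p = 0.61), with libraries that overlapped. None of the 8 passed in edgeR (background 0.0138%), and 4 had an unadjusted p under 0.05, where 7.3% of all genes did. The DESeq2 Wald test and limma on TPM each called 1 (backgrounds 0.296% and 0.0688%), and the replicate block called 0 (0.0138%). That 1 gene was Dusp6 in both, and its adjusted p ran from 0.036 to 1.00 over the alternatives. On this day the cycling markers summed to 604 to 1135 CPM in KO and 773 to 955 CPM in WT, which overlap. The median log2 difference was -0.32 for the granulocyte markers (0 of 10 at an unadjusted p under 0.05) and 0.21 for the macrophage markers (1 of 10), and edgeR called 0 of them.

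**Figure D3:**
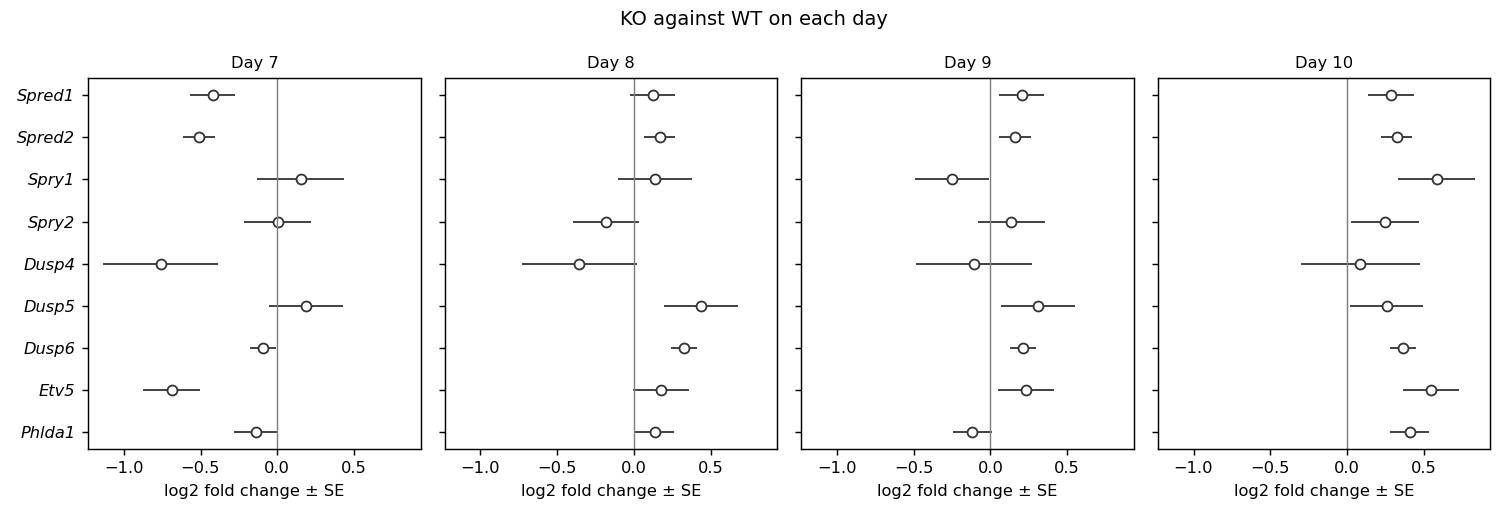
Log2 fold changes of KO over WT (horizontal axis, ± SE) for the 9 genes (vertical axis) on days 7, 8, 9 and 10. Open symbols mark the absence of a call, or of a test for Spred2. Spred2, Etv5 and Spred1 lie at -0.51, -0.69 and -0.42 on day 7, and on day 10 all 9 symbols lie to the right of 0, those of Dusp4, Spry2 and Dusp5 not in every fit that leaves out 1 library.

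Spred2 and Etv5 shared a course through the libraries. Among 10622 genes with an average log2 CPM above 1 whose names are not those of predicted genes, Etv5 was the gene whose log2 CPM was most correlated with that of Spred2 over the 24 libraries (r = 0.96, rho = 0.96). Spred2 was in turn the gene closest to Etv5. Without the 2 libraries farthest from the median of Spred2, KO mice 67 and 68 on day 7, r was 0.93, over the 18 libraries of days 8 to 10 it was 0.91, and after removing group means it was 0.85. Other genes with high likeness to Spred2 were Iars (isoleucyl-tRNA synthetase, r = 0.89), Prep (prolyl endopeptidase, r = 0.87) and Nkrf (a repressor of NF-kB target genes, r = 0.85). Of the other members Phlda1 ranked 81 (r = 0.77), Spry1 777 (r = 0.65) and Spred1 999 (r = 0.62). The phosphatase genes Dusp4 (r = 0.0033), Dusp5 (r = -0.19) and Dusp6 (r = -0.09) and Spry2 (r = 0.16) had low values over the 24 libraries. Over the 18 libraries of days 8 to 10, r was 0.67 for Dusp6, 0.64 for Phlda1, 0.51 for Spred1 and 0.47 for Spry1. After removing group means over the 24 libraries, r was -0.06 for Dusp6, 0.46 for Phlda1, 0.27 for Spred1 and 0.08 for Spry1. These correlations describe libraries that share mice, days and scaling, and they carry no test.

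**Figure D4:**
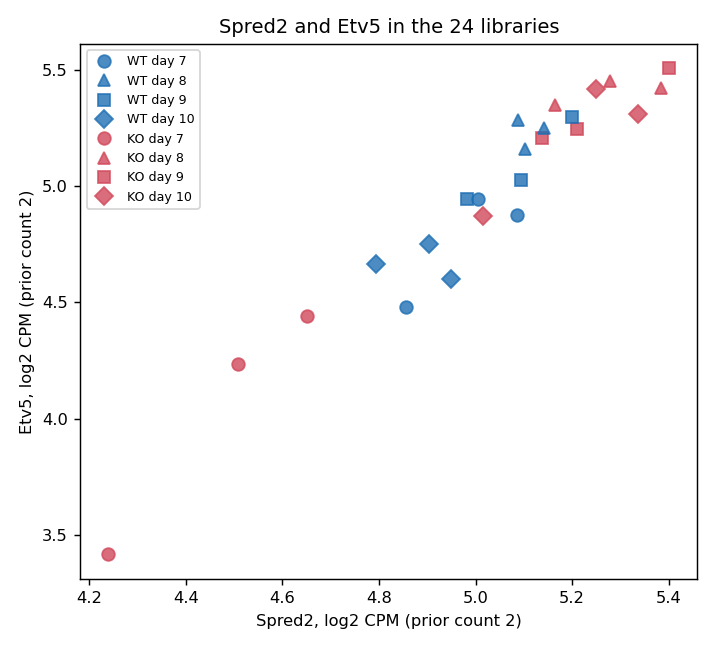
Log2 CPM of Etv5 (vertical axis) against Spred2 (horizontal axis) in the 24 libraries, blue for WT and red for KO, with 1 symbol per day. The KO libraries of day 7 form the lower left end, and most KO libraries of days 8 to 10 lie at the upper right, along 1 line with the WT libraries (r = 0.96).

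Because Spred2 and Etv5 moved together, the sequence just before the start of each is shown. RefSeq windows on GRCm38.p6, from 250 bases before to 50 bases after a start, were found for 7 of the 9 genes (8 windows, as Etv5 has 2). The stretches printed end where the GENCODE M21 gene model begins. They are chr11:19924192-19924374 (forward strand) for Spred2 and chr16:22439720-22439820 (reverse strand) for Etv5, both 5′ to 3′ along the gene, with capitals for any match to the motifs searched.
Spred2: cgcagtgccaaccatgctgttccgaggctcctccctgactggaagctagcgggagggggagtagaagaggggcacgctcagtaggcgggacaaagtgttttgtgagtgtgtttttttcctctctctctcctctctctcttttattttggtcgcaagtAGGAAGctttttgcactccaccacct
Etv5: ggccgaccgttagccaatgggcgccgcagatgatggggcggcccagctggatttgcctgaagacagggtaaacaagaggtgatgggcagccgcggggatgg

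The motifs were AGGAAG (bound by ETS factors of the PEA3 type), CCGGAA (an ETS core with its flank), TGANTCA (the AP-1 site) and TGACG (the core of a cyclic AMP response element). Both strands of the whole windows were searched, and overlapping matches of different motifs were each counted. AGGAAG was found in windows of Spred2, Etv5, Dusp5 and Dusp6, and in 35.4% of all 32851 windows. CCGGAA was found for Spry2 and in 14.9% of all windows, TGACG for Spred2 and Dusp5 and in 20.8%, and TGANTCA for 0 members and in 7.81%. The AGGAAG match of Etv5 and the TGACG match of Spred2 lie outside the printed stretches. Shares this common make a match a description of the letters only.

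Genes that feed or read the pathway were counted from lists of symbols. Of 17 receptor and adaptor genes, 3 rose and 6 fell from day 7 to day 10 in WT, and 4 rose and 6 fell in KO. Over all genes 18.9% rose and 18.1% fell in WT, and 19.7% rose and 17.1% fell in KO, which is the background for each list over this interval. Csf2rb, the signalling subunit of the GM-CSF receptor, rose in WT, where its mean went from 2243 ± 199 to 3712 ± 395 CPM (SD, n = 3 each, log2 0.73, edgeR adjusted p = 1.8e-05). It rose in KO as well (log2 0.78, adjusted p = 9.0e-06), although reads may be shared with its near-identical neighbour Csf2rb2. Csf1r, the receptor for M-CSF, fell in WT (log2 -0.51, edgeR adjusted p = 1.9e-05) and in KO (log2 -0.54, adjusted p = 1.2e-05). Of 19 genes of the cascade from Ras to ERK, 3 rose and 2 fell in WT, shares below or near that background, and 5 rose and 5 fell in KO. Ksr1, a scaffold of the cascade, rose in WT (log2 0.69, edgeR adjusted p = 2.0e-05) and KO (log2 0.61, adjusted p = 6.6e-05).

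Among 15 genes that load or unload Ras, 3 rose and 6 fell in WT and 4 rose and 6 fell in KO over the same interval, beside the same background of 37% of all genes called in WT and 36.8% in KO. Rasgrp1, an exchange factor for Ras, rose in WT, with means of 4.77 ± 0.38 CPM and then 29.5 ± 0.66 CPM (SD, n = 3 each, log2 2.63, edgeR adjusted p = 2.1e-09). In KO the log2 rise of Rasgrp1 was 2.27 (adjusted p = 1.2e-08). Of 12 further feedback inhibitors and phosphatases tested out of 15 listed, 2 rose and 4 fell in WT, and 2 rose and 3 fell in KO. Dusp1, an immediate early MAP kinase phosphatase, fell in WT, with means of 77.4 ± 9.9 CPM and then 17.1 ± 1.6 CPM (SD, n = 3 each, log2 -2.18, edgeR adjusted p = 1.6e-07), and in KO (log2 -1.77, adjusted p = 1.2e-06). Dusp16 rose (log2 0.77 in WT and 0.91 in KO, adjusted p = 0.00012 and 2.3e-05). Of 21 ERK-responsive genes, 5 rose and 8 fell in WT and 6 rose and 4 fell in KO, beside 18.9% rising and 18.1% falling over all genes in WT and 19.7% and 17.1% in KO. Fos fell (log2 -2.50 in WT and -1.64 in KO, edgeR adjusted p = 1.3e-06 and 8.6e-05), whereas Ccnd1, which encodes cyclin D1, rose (log2 1.42 and 2.03, adjusted p = 1.6e-06 and 3.3e-08).

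Between genotypes, 1 gene of these lists passed. On day 7, Etv1, a PEA3-family relative of Etv5, was lower in KO at 2.31 ± 0.31 CPM against 4.27 ± 0.56 CPM in WT (SD, n = 3 each; log2 -0.88, SE 0.19, edgeR adjusted p = 0.026), the 1 call among the 21 ERK-responsive genes. On days 8, 9 and 10 edgeR called 0 genes of any of these lists, while 7 of the 21 ERK-responsive genes had an unadjusted p under 0.05 on each of those days, where 5.91%, 8.15% and 7.3% of all genes did. On day 7 it was 3 of 21, where 15.7% of all genes did, with a list median of 0.04. Other tools were not run on the lists. On day 10 the median log2 fold change of the 21 ERK-responsive genes was 0.27, beside 0.00 for all genes. The 19 cascade genes had a median of -0.05 on that day and the 17 receptor and adaptor genes 0.03.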

How the data were processed

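The authors deposited raw counts and TPM values per gene for 24 libraries of poly(A) RNA. The submitters' processing notes name STAR 2.6.1, FastQC 0.11.9, DESeq2 1.22.2 and mm10, without roles; the counter, its strand setting and the gene lengths behind TPM are not given in the sources used here. Per the labels' protocols, library kits of 2 kinds were used, and which library had which is not stated. Positions are from GENCODE M21 (GRCm38), which holds 55094 of 55487 identifiers. Genes overlapping Spry1, Dusp5 and Phlda1 on the opposite strand had counts of 2.04%, 0.655% and 0.809% of theirs.

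Counts were filtered with filterByExpr, scaled by TMM and fitted with edgeR 4.0.16 (quasi-likelihood, R 4.3.3), with 8 group coefficients and 16 residual degrees of freedom. p-values are two-sided, Benjamini-Hochberg adjusted over 14535 genes, with a threshold of 0.05. Log2 CPM used a prior count of 2. The fit was also run on simulated counts drawn independently for each library. Such a run cannot tell how the fit behaves where libraries share a mouse. Alternatives used DESeq2 1.42.0 and limma 3.58.1, on log2(TPM + 1) for the TPM values. Members and gene lists were chosen with earlier results of these data known. Named genes were the 9 members, up to 2 genes per list and direction with the smallest adjusted p past the threshold and an average log2 CPM above 1 (KO against WT, and day 10 against day 7; a selection of these is printed), and the 5 most like Spred2; some of these genes are not reported here. Log2 changes under 2 standard errors were compared across alternatives only through counts of calls, except where given for Spred2.

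Per the labels, libraries with the same number come from 1 mouse. Their deviations from group means correlated above 0.1 in 18 of 18 pairs in WT (0.15 to 0.74) and in 7 of 18 in KO (-0.80 to 0.80), over 11111 genes. WT steps between days were therefore also fitted with edgeR on the 12 WT libraries with the mouse as a replicate block, added after the values were seen. Counts carry no molecular identifiers.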

Additional observations from a re-analysis of the deposited data

How the results depend on the processing

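Over 53 log2 changes of single genes, each at least 2 standard errors from 0, and 834 alternative fits of them, 764 kept direction and side of the threshold, 29 lost a call, 40 gained one and 0 reversed. The 1 other is the description of Spred2 in KO from day 7 to day 10, which was 0.73 and became 0.99 on TPM. Changes under 2 standard errors, such as those of Dusp6 in KO and Spred2 in WT from day 7 to day 8, are not among the 53. Of 22 calls, 15 held in every alternative run. Counts of calls among the 8 genes that moved by over 1.5 times were as follows, with the share of all genes called in the same fit in brackets. With the DESeq2 Wald test KO against WT gave 1 on day 7 (3.6%) and 1 on day 10 (0.296%), day 9 against day 8 in KO gave 1 (6.18%), and the day 7 to 10 interaction gave 1 (0.268%). Without a filter on low counts KO against WT on day 7 gave 1 (1.19%), day 9 against day 8 in KO gave 1 (2.08%) and that interaction gave 1 (0.0523%). With at least 50 counts on average day 9 against day 8 in KO gave 1 (4.08%). With only the libraries compared KO against WT on day 7 gave 1 (Spred1, 2.36%), day 9 against day 8 in WT gave 2 (16.6%), and day 10 against day 9 in KO gave 0 (0%). Limma on TPM gave 1 for KO against WT on day 10 (0.0688%). Without the 8 libraries high in Ddx3y, added after seeing the data, KO against WT on day 7 gave 1 (2.22%), day 9 against day 8 in KO gave 1 (5.92%) and day 10 against day 9 in WT gave 1 (0.785%). The causes were not tested. Smaller moves were day 8 against day 7 in WT (5 to 6 with another scaling, filter, tool or set of libraries), day 10 against day 9 in WT (4 with only the libraries compared), day 10 against day 7 in KO (3 with only the libraries compared, without Spry1, and 5 on TPM) and day 10 against day 7 in WT (4 on TPM and 4 without the libraries high in Ddx3y). The share of all genes ran from 19.9% to 56.2% over all alternatives of the first. It was 6.26% for the second, 24.6% and 51.6% for the third, and 47.3% and 31.5% for the last.

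Leaving out 1 library at a time gave 0 to 1 for KO against WT on day 7, 0 to 1 for day 9 against day 8 in WT and in KO, 0 to 1 for day 10 against day 9 in KO, 3 to 5 for day 10 against day 7 in WT, 4 to 6 for day 10 against day 7 in KO, 2 to 3 for day 10 against day 9 in WT, 4 to 5 for day 8 against day 7 in WT and in KO, and 0 to 1 for the day 7 to 10 interaction. The share of all genes called ran over these fits from 0.162% (without WT mouse 66) to 1.97% (without KO mouse 64) for KO against WT on day 7. It ran from 0.943% to 3.1% for day 9 against day 8 in WT and from 0.331% to 6.02% in KO, and from 0.452% to 3.6% for day 10 against day 9 in WT and from 0% to 3.17% in KO. For day 8 against day 7 the share was 36.1% to 38.8% in WT and 33.6% to 42.6% in KO. For day 10 against day 7 it was 29.4% to 32.3% in WT and 26.9% to 38.1% in KO. The replicate block over all 24 libraries (consensus correlation 0.0046) used KO numbers that do not follow 1 animal. It gained the WT rise of Etv5 from day 7 to day 8 and changed no other call of the 8 genes. The replicate block within the 12 WT libraries, added after seeing the data, gave 8 for day 8 against day 7, 2 for day 9 against day 8, 7 for day 10 against day 9 and 5 for day 10 against day 7. The shares of all genes called in these fits were 55.5%, 20%, 16.7% and 47.5%, in that order. On log2(TPM + 1) the median of all genes shifted by 0.17 (day 8 against day 7) and 0.21 (day 10 against day 7) in WT, and by 0.17 and 0.25 in KO; on that scale the falls of Spred1 and Spry2 in WT did not pass. Spry1 has the fewest counts, 22 to 105 per library.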

Other observations

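In WT, Dusp4 was highest in mouse 65 on each of the 4 days (13.3, 10.7, 8.79 and 5.80 CPM) and lowest in mouse 63 (7.35, 4.82, 4.87 and 1.96 CPM). No test was made of this ranking, which was noticed in the values.

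In KO, Dusp5 was highest on each day in the library that also lay highest on the first principal component of all genes: mouse 67 on days 7, 8 and 9 (43.3, 42.4 and 43.9 CPM) and the library numbered 64 on day 10 (53.5 CPM). The proliferation marker Mki67 was also highest in these libraries of their groups, at 160, 200, 322 and 351 CPM. The other KO libraries held 21.4 to 38.8 CPM of Dusp5. The part of these library differences in the Dusp5 values was not tested.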
